A study of Sthenoteuthis oualaniensis with 24 samples.

Results

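The unigenes described here are those of the "medium" form (MF) of the purpleback flying squid, Sthenoteuthis oualaniensis (SA), that were high in the stomach and low in the intestine both before and after sexual maturity. They numbered 53 of 66837 MF unigenes. A unigene is 1 sequence of an assembly made from the reads without a genome. Members were chosen on the mean FPKM (mapped fragments scaled to sequence length and library size) of the 3 libraries of each group. A member had at least 20 FPKM in the stomach at both stages, and its stomach mean + 0.5 FPKM was at least 8 times its intestine mean + 0.5 FPKM at both stages. Of the MF unigenes, 2410 met the first condition alone.

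mRNA of intestine and stomach was measured by RNA-Seq in mature and immature SAs of the "dwarf" form (DF) and the MF. There were 24 libraries in 8 groups of 3. The 4 MF groups are immature stomach (MUS), mature stomach (MDS), immature intestine (MUI) and mature intestine (MDI). All SAs were wild animals from the South China Sea with no treatment, and their age was not stated. Maturity stages III to V counted as mature and I and II as immature, and each form had its own set of unigenes. These are bulk samples, so fewer cells of a type and less RNA per cell cannot be told apart.

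The cephalopod stomach is a muscular sac with a cuticle lining. Food is mixed there with enzymes that come from the digestive gland, and the caecum and the intestine follow it. Sexual maturation in squids is a period in which food and body reserves go to the gonads and accessory glands. The deposited values carry unigene IDs and no gene names or sequences, so no role can be given to any member, and the tissue labels could not be checked against marker genes.

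Some facts about the data stand before the results. In each group, the variance between 2 libraries was set against that of counting reads. Of 12 pairs of libraries, 0 had a ratio more than 2 standard errors above 1. The test is weak, with 27 to 49 unigenes a pair. The ratio ran from 0.53 to 3.73 and was below 1 only for MDI libraries 1 and 2. It was highest for MDS library 1 against libraries 2 (3.61) and 3 (3.73). Among the 377 to 397 unigenes of at least 200 FPKM, the median difference between libraries of a group was 1.3% to 2.0%. The tissues of a group are described as coming from 3 SAs, with a library made separately for each. The weak test above neither shows nor excludes a spread beyond counting noise, so no p-value is given for a single unigene. The calls by limma, a linear model fitted across all unigenes, took each library as a sample, and they rest on this small spread between libraries.

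The MF unigene IDs are of 3 kinds, and the kind moved with the direction of change. There were 25876 IDs of the form comp...seq ending in 1, 28389 of the same form ending in 2, and 12572 beginning with CL. The files do not say what the endings mean. Of the members, 15 had the ending 1, 31 the ending 2, and 7 a CL ID. Over all unigenes tested in the stomach, the median log2 ratio of mature to immature was 1.07 for the ending 1, -1.04 for the ending 2 and 0.09 for CL IDs. The part of the ID kind in the changes below was not tested, so the values of the 3 kinds are given beside each result.

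The members differed widely in their stomach level. Group means ran from 21.3 to 11981 FPKM in MUS, with a median of 65.6, and from 20.3 to 17642 FPKM in MDS, with a median of 68.8. In the intestine they ran from 0 to 65.2 FPKM in MUI (median 2.16) and from 0 to 30.5 FPKM in MDI (median 1.26). The ratio of stomach to intestine, each with 0.5 FPKM added, was 8.68 to 279 with a median of 31.1 in immature SAs and 8.17 to 869 with a median of 44.5 in mature SAs. It was larger in mature SAs for 37 members and smaller for 16. The rule chose the members on these ratios, so they are a description. The values of libraries of a group lay close together in the stomach, with a median coefficient of variation of 3.13% in MUS and 3.35% in MDS, and further apart at the low levels of the intestine, with 22.0% in MUI and 45.3% in MDI.

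Near the threshold, comp65544_c0_seq1_1 (ratio of 8.17 in mature SAs), comp38516_c0_seq1_1 (8.32 in mature SAs) and comp55434_c0_seq1_1 (8.68 in immature SAs) were just inside. Just outside were comp60028_c1_seq3_2 (7.15 in mature SAs), comp55608_c1_seq1_1 (6.66 in mature SAs) and comp74618_c0_seq1_2 (6.57 in mature SAs).

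Together the members took 8.64% ± 0.06 (SD, n = 3 libraries) of the summed FPKM in MUS and 8.70% ± 0.10 (SD, n = 3 libraries) in MDS. In the intestine they took 0.0722% ± 0.0088 in MUI and 0.0392% ± 0.0026 in MDI (SD, n = 3 libraries each). The near-equal stomach shares hid opposite movements by ID kind. Members with the ending 2 went from 6.64% to 5.57%, those with the ending 1 from 1.24% to 1.91%, and those with CL IDs from 0.753% to 1.23% of the summed FPKM.

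A set of 6 members made up most of this share, 89.6% of the members' summed FPKM in MUS and 87.4% in MDS. The sixth had a stomach mean of 5616 FPKM and the next member 806 FPKM. The library values of comp71996_c1_seq1_2 were 11743, 12071 and 12127 FPKM in MUS and 2380.0, 2442 and 2464 FPKM in MDS. It was the most abundant of all MF unigenes in the immature stomach and rank 22 in the mature one. The values of comp33489_c0_seq1_2 were 5962, 6091 and 6027 FPKM in MUS and 17458, 17746 and 17720.1 FPKM in MDS. It went the other way, from rank 8 to rank 1. Both unigenes have IDs with the ending 2, and in neither did the libraries of the stages overlap.

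The third member with a called change, comp61394_c0_seq2_2, had 10309, 10337 and 10467 FPKM in MUS and 4015, 4222 and 4282 FPKM in MDS. The other members of the set moved by less than 2-fold, again with no overlap between stages. Stage libraries also did not overlap for 64.4% of all unigenes tested in the stomach. Among the 2410 unigenes of at least 20 FPKM in both stomach groups this share was 83.7%. For comp52755_c0_seq1_2 the values were 8702, 8751 and 8742 FPKM in MUS and 7027, 7073 and 7032 FPKM in MDS. For comp40670_c0_seq1_1 they were 6077, 6255 and 6370.3 FPKM in MUS and 9013, 9194 and 9213 FPKM in MDS. CL1Contig2371 had 4135, 4233 and 4242 FPKM in MUS and 6823, 7170.2 and 7095 FPKM in MDS.

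**Figure D1:**
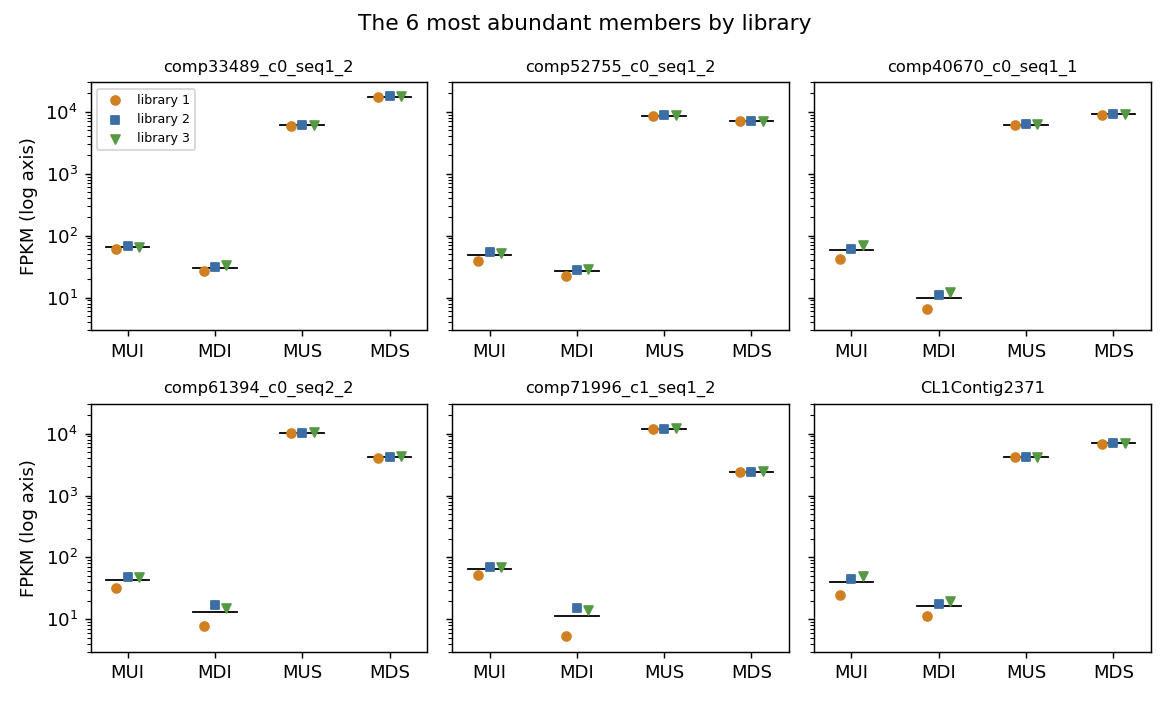
FPKM (log axis) of the 6 most abundant members in each library of the 4 MF groups, with 1 symbol per library number and a line at the group mean. In the stomach (MUS, MDS) the symbols lie on top of each other at 2380.0 FPKM or more, while in the intestine (MUI, MDI) library 1 is the lowest in every panel.

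The same 6 members were lower in the mature than in the immature intestine whatever they did in the stomach. Their log2 ratios of mature to immature intestine ran from -2.47 to -0.88, and limma called all of them as lower but comp52755_c0_seq1_2 (-0.88). Of all unigenes tested in the intestine 22.7% were called lower. By ID kind this share was 51.6% for the ending 2, 1.48% for the ending 1 and 5.84% for CL IDs. In both intestine groups library 1 was the lowest for all 6. Its value was 0.528 to 0.898 of the mean of libraries 2 and 3 in MUI, and 0.370 to 0.810 in MDI. For example, comp71996_c1_seq1_2 had 51.9, 69.0 and 71.0 FPKM in MUI and only 5.34, 15 and 13.9 FPKM in MDI. Among non-members of at least 20 FPKM in the same group the median of this ratio was 1.00, and it was under 0.9 for 10.7% in MUI and 9.85% in MDI. Among other members of at least 5 FPKM in the group it was under 0.9 for 5 of 10 in MUI and 1 of 11 in MDI. Library 1 was also the lowest for all 6 in the stomach, but there it stood at 0.963 to 0.995 of the others in MUS and 0.944 to 0.996 in MDS.

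The intestine level of the 6 members was a small percentage of their mean stomach level over both stages, 0.551% to 0.888% in MUI and 0.130% to 0.335% in MDI. As a percentage of the stomach level of the same stage it was 0.412% to 1.08% in MUI and 0.110% to 0.469% in MDI. The other 47 members had medians of 2.96% and 1.00% of the mean over both stages. In all, 64 MF unigenes reached a mean of 1000 FPKM in the stomach, and the lowest such percentage among those that were not members was 0.0779% in MUI and 0.176% in MDI. Whether stomach RNA was carried into intestine libraries was not tested.

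The comparison of MDS with MUS asks which members changed with sexual maturity in the stomach. A call needed a Benjamini-Hochberg adjusted p under 0.05 by limma on log2(FPKM + 0.5) and a change of at least 2-fold. All 53 members passed the filter on low values (a mean of 0.5 FPKM), as the rule ensures. By this call in limma 16 members rose and 12 fell, 52.8% of the members, while 25 were not called, with log2 ratios from -0.98 to 0.74. Over all 44581 unigenes tested 40.9% were called (21.3% higher and 19.6% lower), and among the 2410 unigenes of at least 20 FPKM in both stomach groups 20.6% (10.4% higher and 10.2% lower). Counted by size alone, with no test, the members again gave 16 higher and 12 lower, against 46.7% of all tested (24.3% higher and 22.5% lower) and 20.5% of the 2410 (10.4% higher and 10.1% lower). The members' share thus stood above both backgrounds, and further above that of unigenes of like level. These backgrounds depend on the ID kind. Called were 33.6% of the ending 1, 32.7% of the ending 2 and 7.99% of CL IDs at like level, and 48.5%, 48.3% and 15.5% over all tested. CL IDs made up 49.9% of the 2410 and 13.2% of the members. The part of the ID kind in the gap was not tested. Stage libraries did not overlap for 45 of the 53 members, against 64.4% of all tested and 83.7% of the 2410, so that the share among members was near the latter. The median log2 ratio over the members was 0.44, against 0.09 over all tested and 0.09 over the 2410. With 1 member per group of contigs (47 members) it was 0.14, since all members with CL IDs come from 1 such group.

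**Figure D2:**
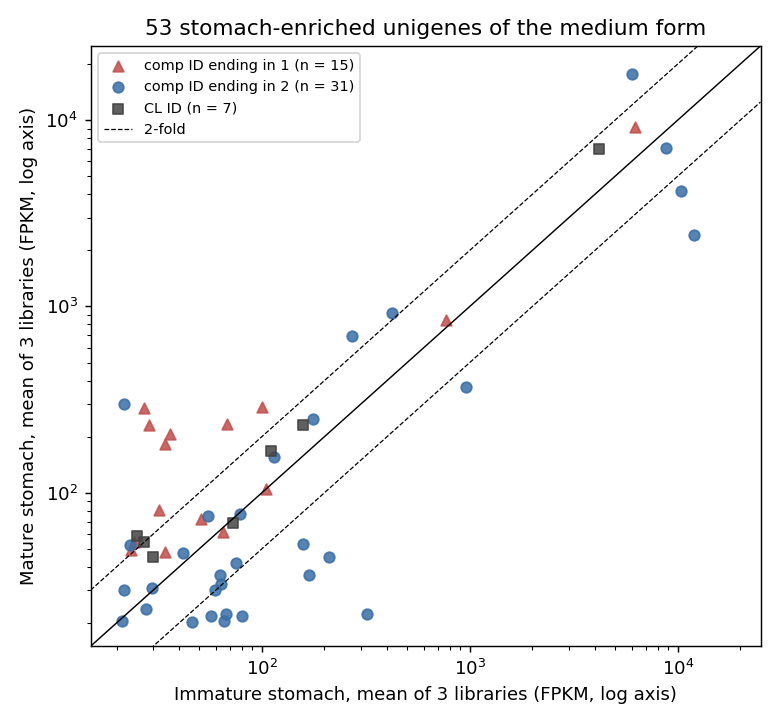
Mean FPKM of the 3 libraries in the mature stomach against that in the immature stomach for the 53 members (both log axes), with symbols by kind of unigene ID. Dashed lines mark a 2-fold difference, with 16 members above and 12 below, and all 12 below are of the kind ending in 2.

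The directions differed by ID kind. Of the 15 members with the ending 1, 9 rose and 0 fell, with a median log2 ratio of 1.15. Of the 31 with the ending 2, 5 rose and 12 fell, with a median of -0.80. Of the 7 with CL IDs, 2 rose and 0 fell, with a median of 0.60. By limma at an unadjusted p under 0.05 and by size alone, both counts of 0 were again 0. Non-members of at least 20 FPKM in both stomach groups had medians of 0.53 for the ending 1, -0.48 for the ending 2 and 0.12 for CL IDs, so the members lay further out in the same order for the comp IDs. Among all unigenes of that level 31.2% of the ending 1 were called higher and 2.35% lower. Of the ending 2, 4.89% were called higher and 27.8% lower, and of CL IDs 3.83% and 4.16%. Over all tested unigenes of each kind, 46.6% of the ending 1 were called higher and 1.86% lower. For the ending 2 these shares were 3.18% and 45.1%, and for CL IDs 8.57% and 6.97%. Beside them, 60.0% of the members with the ending 1 rose, and 38.7% of those with the ending 2 fell. The members held fewer CL IDs (13.2%) than the 2410 unigenes (49.9%), and more IDs with the ending 2 (58.5% against 27.1%). In the DF, all 68627 unigenes had CL IDs, so that the kinds could not be compared there.

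**Figure D3:**
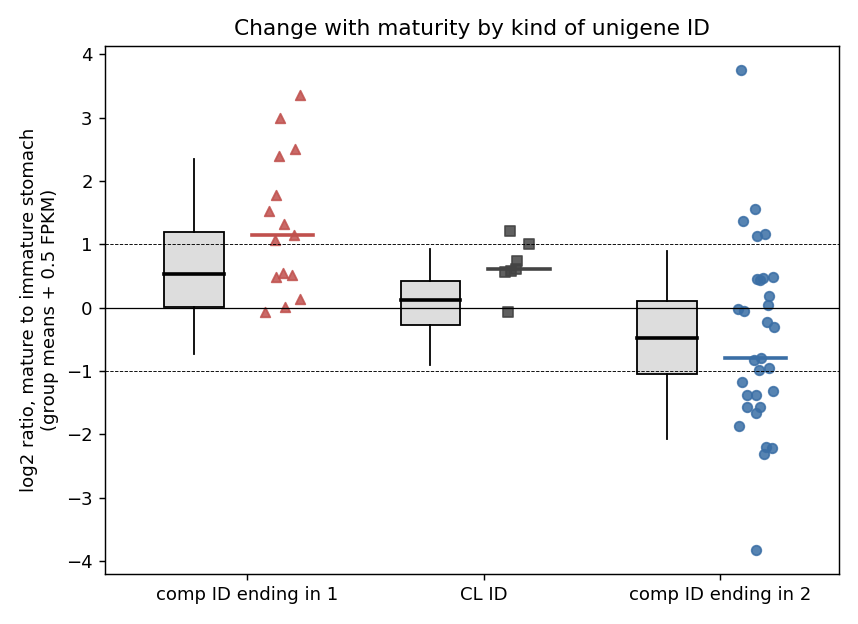
The log2 ratio of mature to immature stomach (group means + 0.5 FPKM) by kind of unigene ID. Coloured points are members with a line at their median (1.15 for the ending 1, 0.60 for CL and -0.80 for the ending 2), and grey boxes show the median (0.53, 0.12 and -0.48) and quartiles of non-members of at least 20 FPKM in both stomach groups, with lines that leave out 5% at each end.

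Among the members that rose, comp48739_c0_seq1_2 had the largest change, from 21.8, 22.2 and 21.3 FPKM in MUS to 287, 297 and 314 FPKM in MDS, a 13.5-fold difference. It was also 1 of the 5 risers with the ending 2. Next came comp55434_c0_seq1_1, from 25.4, 29.7 and 26.5 FPKM in MUS to 279, 284 and 289 FPKM in MDS. For comp62387_c1_seq2_1 the values went from 31.6, 28.6 and 26.0 FPKM to 240.4, 223 and 230.1 FPKM. These 3 unigenes stood near the lower limit of the rule in the immature stomach and above 200 FPKM in the mature one. The rises of comp60355_c0_seq1_1 (33.9, 40.3 and 34.7 FPKM in MUS; 213, 204 and 206 FPKM in MDS), comp65717_c3_seq3_1 (log2 ratio of 2.39) and comp59361_c1_seq2_1 (log2 ratio of 1.78) were smaller. Of the 6 largest rises 5 were of the kind ending in 1.

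Among the members that fell, comp39588_c0_seq1_2 had the largest change, from 341, 326 and 299 FPKM in MUS to 16.8, 26.1 and 24.1 FPKM in MDS. The immature level was 14.1-fold the mature one, on group means + 0.5 FPKM. For comp60071_c0_seq1_2 the values went from 207, 211 and 209.6 FPKM to 44.9, 45.0 and 45.4 FPKM. For comp60746_c0_seq1_2 they went from 193, 163 and 151 FPKM to 37.6, 31.6 and 39.5 FPKM. The spread between libraries was thus small for some of these unigenes and wider for others, and no library of MDS reached one of MUS. The falls of comp71996_c1_seq1_2 (log2 ratio of -2.30), comp70038_c0_seq1_2 (-1.86) and comp69021_c0_seq2_2 (-1.66) complete the 6 largest, all with the ending 2. A fall could go only as far as 20 FPKM, since the rule asks for that level at both stages, and comp69021_c0_seq2_2 ended at a mean of 20.4 FPKM.

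The smallest changes were those of comp64570_c1_seq1_1, comp41231_c1_seq1_2 and comp64456_c1_seq6_2. For comp64570_c1_seq1_1 the libraries held 104, 106 and 104 FPKM in MUS and 102, 106 and 108 FPKM in MDS, and the stages overlapped. Values of comp41231_c1_seq1_2 were 85.2, 83.2 and 66.1 FPKM in MUS and 60.9, 89.9 and 80.1 FPKM in MDS. Here the libraries of a stage differed by more than the stages did.

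The comparison of MDI with MUI asks the same of the intestine, where the members are low by the rule. Only 42 of the 53 members passed the filter there. At least 1 intestine library listed 8 members at 0, and comp3098_c0_seq1_2 was listed at 0 in all 6. That unigene had 23.5, 32.3 and 13.9 FPKM in MUS and 60.6, 55.8 and 40.7 FPKM in MDS. Of the 42 members, 4 rose and 14 fell, against 21.9% higher and 22.7% lower of the 50834 unigenes tested and 44.6% in all. Among unigenes of at least 20 FPKM in both stomach groups 10.7% were called higher and 13.5% lower, 24.3% in all. By size alone 6 members were higher and 15 lower, against 23.8% and 24.9% of all tested (48.7% in all) and 10.8% and 13.7% of unigenes of at least 20 FPKM in both stomach groups (24.4% in all). Since passing the filter depends on the level in the intestine, these counts are a description. The intestine stages did not overlap for 27 of the 42, against 67.6% of all tested and 86.7% of unigenes of at least 20 FPKM in both stomach groups. The median log2 ratio of mature to immature intestine was -0.69 over the 42 members tested, against -0.03 over all tested and -0.12 over tested unigenes of at least 20 FPKM in both stomach groups, and -0.44 over all 53 members. By ID kind, 3 rose and 1 fell with the ending 1, where 38.7% of unigenes of at least 20 FPKM in both stomach groups were called higher and 4.18% lower. With the ending 2, 1 rose and 11 fell, against 2.62% and 37.0%. With CL IDs 0 rose (in limma 0 also at an unadjusted p under 0.05 with a 2-fold change, and 1 without that change) and 2 fell, against 2.25% and 5.17%. The members tested numbered 11 with the ending 1, 26 with the ending 2 and 5 with CL IDs. Over all tested unigenes of each kind, 52.2% of the ending 1 were called higher and 1.48% lower. For the ending 2 these shares were 1.94% and 51.6%, and for CL IDs 6.23% and 5.84%.

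The 3 members of highest intestine mean were all among the abundant 6: comp33489_c0_seq1_2 (60.6, 68.8 and 66.2 FPKM in MUI; 26.4, 31.7 and 33.4 FPKM in MDI), comp71996_c1_seq1_2, given above, and comp52755_c0_seq1_2 (39.1, 54.8 and 52.9 FPKM in MUI; 22.4, 27.7 and 29.0 FPKM in MDI). All 3 had lower values in every mature than in every immature intestine library.

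Called in both tissues were 11 members. Of these, 4 rose in both, comp48739_c0_seq1_2, comp55434_c0_seq1_1, comp52256_c0_seq1_1 and comp65544_c0_seq1_1. The intestine values of comp52256_c0_seq1_1 went from 4.92, 6.6 and 5.77 FPKM in the 3 MUI libraries to 25.6, 27.3 and 28.3 FPKM in MDI, beside 98.6, 99.2 and 102 FPKM in MUS and 294, 289 and 287 FPKM in MDS. Another 6 fell in both, among them comp60071_c0_seq1_2, with 8.47, 9.85 and 8.77 FPKM in MUI and 0.888, 1.38 and 0.841 FPKM in MDI. All that fell in both have the ending 2. The remaining member, comp33489_c0_seq1_2, rose in the stomach and fell in the intestine, and 0 members did the reverse. Of the 38349 unigenes tested in both tissues, 12.5% were called higher in both, 10.7% lower in both, 0.449% higher in the stomach and lower in the intestine, and 0.24% the reverse. Among the 2399 of these with at least 20 FPKM in both stomach groups the percentages were 5.34%, 5.88%, 0.25% and 0.25%. The counts of members depend on passing the filter in the intestine and are a description.

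**Figure D4:**
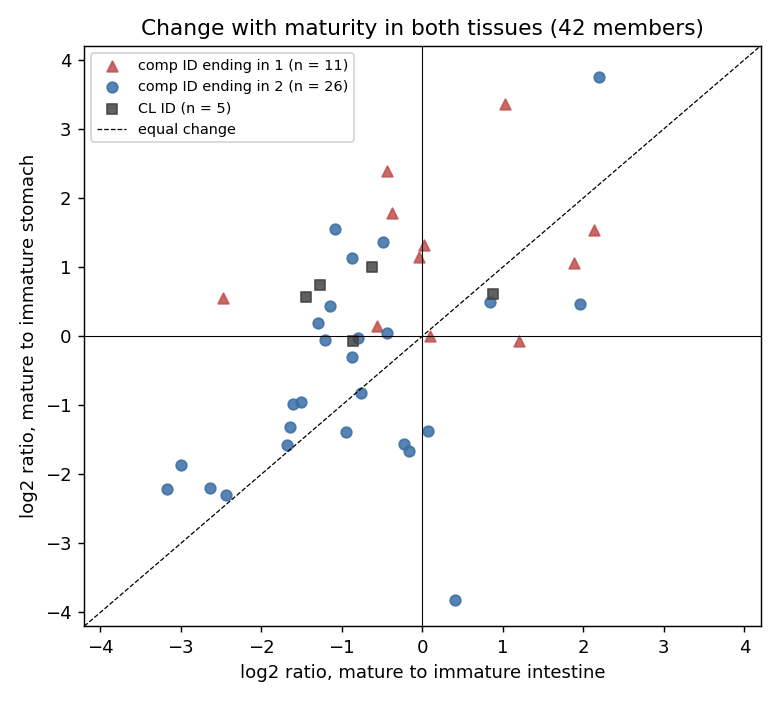
The log2 ratio of mature to immature stomach against that of the intestine for the 42 members tested in both tissues, with symbols by kind of unigene ID and a dashed line of equal change. Most members lie above the line, and the distance from it is the change of the ratio used by the rule. By limma call 1 member was higher in the stomach and lower in the intestine, and 0 the reverse. Of the 38349 unigenes tested in both tissues the shares were 0.449% and 0.24%.

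The difference between the changes of the 2 tissues was tested as an interaction of tissue and maturity over the 12 MF libraries. It is equal to the change of the ratio of stomach to intestine, and both of those ratios were used by the rule, which sets a lower limit on each and not an order between them. The values are therefore a description. The fit took the stomach and intestine libraries as independent samples. The paper describes both tissues as sampled from 3 SAs per form and stage, so any pairing within an animal was ignored. All 53 members passed the filter over the 12 libraries, 11 of them only through the stomach. The change in the stomach was larger (more positive) for 19 members and smaller for 3, 35.8% and 5.66% of the 53. Over all 50372 unigenes tested 13.1% were larger and 12.2% smaller, 25.3% in all. Among unigenes of at least 20 FPKM in both stomach groups 10.4% were larger and 7.63% smaller, 18.0% in all. These backgrounds were not chosen on the ratios, so the gap between them and the members is not read as an excess. The median difference over the members was 0.63 on the log2 scale, against 0.13 for unigenes of at least 20 FPKM in both stomach groups. The 19 members had differences from 1.14 to 3.07, and 13 of them were called as higher in the stomach. For 3 of the 19, comp62387_c1_seq2_1, comp60355_c0_seq1_1 and comp3098_c0_seq1_2, the intestine change itself was not tested, as their intestine mean was under 0.5 FPKM. By ID kind the counts were 8 larger and 0 smaller for the ending 1, 8 and 3 for the ending 2, and 3 and 0 for CL IDs. Among unigenes of at least 20 FPKM in both stomach groups the ending 1 went the other way, with 12.8% larger and 20.6% smaller. There the ending 2 had 14.8% and 7.19% and CL IDs 6.91% and 1.91%. Over all tested unigenes of each kind 10.4% were larger and 18.1% smaller for the ending 1. For the ending 2 these shares were 18.0% and 9.7%, and for CL IDs 8.73% and 6.53%. At an unadjusted p under 0.05 limma gave 3 members of the ending 1 with a smaller change (1 with a difference of at least 1) and 0 with a CL ID.

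Among members with an intestine mean of at least 0.5 FPKM, the largest positive differences were those of comp40670_c0_seq1_1 (3.02), comp65717_c3_seq3_1 (2.83) and comp33489_c0_seq1_2 (2.63). In the intestine comp40670_c0_seq1_1 had 41.7, 60.2 and 71.4 FPKM in MUI and 6.65, 11.2 and 12.2 FPKM in MDI, so its level was lower in the mature intestine and higher in the mature stomach. The low intestine values of comp65717_c3_seq3_1, 2.06, 0.293 and 2.59 FPKM in MUI, scattered widely. The largest negative differences were those of comp39588_c0_seq1_2 (-4.23), comp69021_c0_seq2_2 (-1.49) and comp73709_c0_seq1_2 (-1.49). The intestine held little of these unigenes at either stage. The values of comp39588_c0_seq1_2 were 0.439, 1.11 and 0.425 FPKM in MUI and 0.656, 0.426 and 2.03 FPKM in MDI, which overlap. The difference of comp73709_c0_seq1_2, listed at 0 in 2 libraries of MUI, was not called.

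The IDs also show which members come from the same group of contigs. The 46 members with comp IDs came from 46 different components, and the 7 with CL IDs all belonged to CL1, a group of 6787 unigenes. The 7 are therefore not taken as independent of each other. Apart from CL1Contig2371 their stomach means lay between 25.1 and 232 FPKM. CL1Contig6521 (25.5, 25.2 and 24.4 FPKM in MUS; 59.4, 58.7 and 58.5 FPKM in MDS) and CL1Contig5796 (27.2, 27.0 and 27.1 FPKM in MUS; 55.0, 54.4 and 54.7 FPKM in MDS) rose, the latter at the threshold of 2-fold. CL1Contig5114, CL1Contig2047 and CL1Contig3716 had log2 ratios of 0.56, 0.60 and 0.58 in the stomach and were not called. CL1Contig5822 had 66.8, 75.6 and 74.9 FPKM in MUS and 67.2, 70.4 and 68.6 FPKM in MDS, with overlapping stages.

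The 53 members were fewer than the unigenes found by like rules in the intestine and in the DF. The mirrored rule, for unigenes high in the intestine, found 173 MF unigenes, and the rule for the stomach found 132 of 68627 DF unigenes. At least 20 FPKM in both stomach groups was reached by 3734 DF unigenes and 2410 MF unigenes. Each form had its own assembly, so counts of unigenes need not be comparable between them. The unigenes high in the intestine took 4.06% of the summed FPKM in MUI and 11.6% in MDI, and the DF unigenes 12.3% and 13.6% in the immature and mature DF stomach. By size alone, 55 of the 173 (31.8%) were 2-fold higher with maturity and 21 (12.1%) lower in their own tissue. Over all unigenes tested in the MF intestine the shares were 23.8% and 24.9%. In the DF 17 of the 132 (12.9%) were higher and 30 (22.7%) lower. The share over all DF unigenes was not computed, nor one for intestine unigenes of like level, so these counts are a description. The median log2 ratios in the own tissue were 0.44 for the members, 0.43 for the unigenes high in the intestine and -0.09 for the DF unigenes. That of the members was 0.14 with 1 member per group of contigs and -0.80 for the ending 2 alone. These sets were not tested against each other, and unigenes of the 2 forms cannot be matched by ID.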

How the data were processed

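Groups were taken from the sample labels. The authors prepared stranded mRNA libraries, trimmed the reads, built the unigenes of each form with Trinity, and deposited 1 table of FPKM values per library. For the aligner and for the software behind FPKM, names were not given in the sources used here. FPKM holds no read numbers, so the depth of a value is unknown. Some deposited FPKM values are many orders of magnitude below those of 1 read, so reads were assigned in fractions.

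FPKM values are not counts, so they were log2-transformed after adding 0.5 FPKM and fitted with limma 3.58.1 (R 4.3.3), with the trend option, no covariates and 2-sided tests. Unigenes whose mean reached 0.5 FPKM in the fitted libraries (6, or 12 for the interaction) were tested. This replaced the count method of the study. Changes on this scale understate those of low unigenes. A call needed a Benjamini-Hochberg adjusted p under 0.05, over all unigenes tested, and a log2 fold change of at least 1. Medians and ratios were computed from group means + 0.5 FPKM in Python 3.11.15. The fits were run on simulated data with large changes set in 200 unigenes that were not low, and a small spread between libraries. All 200 were recovered in each fit, with 0 to 2 false calls. That setting does not cover changes at the low intestine levels or a spread between animals.

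Libraries of a group were compared with the noise of counting reads, with the value of 1 read estimated from values of 0.02 to 2 FPKM. That no pair exceeded it by more than 2 standard errors does not show that the libraries came from the same SAs. The values did not show that library numbers pair the samples, and they cannot show that pairing was absent.

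Unigenes were named by fixed rules: the 6 most abundant, the 6 largest rises and falls in the stomach without overlap of libraries, the 3 smallest changes, the 3 largest differences between tissues in each direction, those listed at 0 in all intestine libraries, the 3 highest in the intestine, the 3 just inside and just outside the threshold, and the largest set from 1 component. comp52256_c0_seq1_1 is named outside them, after its values were seen. The members, and the rules, were chosen with earlier results of these data known. Alternatives were the pseudocount, the filter, the scaling, the p threshold, the samples of the fit, leaving out each library and, added after the values were seen, each kind of ID alone.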

Additional observations from a re-analysis of the deposited data

Results flagged for a closer look

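For 22 of the 53 members the change with maturity differed between stomach and intestine by the interaction in limma, which rests on the spread between libraries. The share called was 25.3% over all unigenes tested and 18.0% over those of at least 20 FPKM in both stomach groups. The rule used both ratios that this difference compares, and the background unigenes were not chosen on them. The count is therefore a description, and its gap to these shares is not read as an excess. Of the 53, 11 passed the filter only through the stomach. Among the named members the difference on the log2 scale, stomach minus intestine, was 3.02 for comp40670_c0_seq1_1, 2.83 for comp65717_c3_seq3_1, 2.63 for comp33489_c0_seq1_2, -4.23 for comp39588_c0_seq1_2 and -1.49 for comp69021_c0_seq2_2. The intestine means of these members differed widely, from 65.2 FPKM in MUI for comp33489_c0_seq1_2 to 0.657 FPKM for comp39588_c0_seq1_2. Groups of 3 libraries were not checked for single outlying values.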

How the results depend on the processing

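Leaving out each library in turn gave 26 to 28 called members in the stomach, 15 to 19 in the intestine, 21 to 24 for the difference between tissues, 52 to 54 members by the rule, and a median log2 ratio of 0.31 (without MDS library 3) to 0.48 in the stomach and -0.53 to -0.40 in the intestine. Where 1 kind of ID was taken alone, an alternative chosen after the values were seen, the called members in the stomach were 9 for the ending 1, 17 for the ending 2 and 2 for CL IDs, those in the intestine 4, 12 and 2, and those of the difference 8, 11 and 3, because fewer members were counted. The median in the stomach was 1.15 for the ending 1, reversed to -0.80 for the ending 2 and was 0.60 for CL IDs, and that in the intestine was -0.042, -0.87 and -0.62. With 1 member per component (47 members) the stomach median was 0.14. With a pseudocount of 0.1 FPKM the intestine median was -0.58. A ratio of at least 16 left 34 members and a level of at least 50 FPKM left 23. The pseudocounts, no filter, quantile normalization, scaling by the median of ratios, the unadjusted p, the fit on 12 libraries and size alone kept the counts of called members within 1.5 times, the splits in the stomach lying between 16 higher and 12 lower and 14 higher and 14 lower. With the 3 MUS libraries averaged into 1 sample, 15 members were higher and 12 lower in the stomach, and the difference had 16 larger and 1 smaller. The averaged sample is there assumed to vary like the libraries of the other groups (those of MDS alone in the stomach), so this does not test groups counted as single samples. Of 270 alternative values of the named members 256 lay within the spread between libraries, 14 moved further. The latter include comp64570_c1_seq1_1, which was not called and went from 0.01 to -0.05 with scaling by the median of ratios.

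Correlations of deviations were -0.003 to 0.031 for the same library number and -0.021 to 0.016 otherwise. They did not show a pairing of samples by library number, and values near 0 cannot show that pairing was absent. Library 1 was the lowest for all 6 abundant members in every MF group. With the library number as a replicate block, 28 members were called in the stomach, 19 in the intestine and 22 for the difference. FPKM without read depth limits what can be said of members near 0 in the intestine.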
